A study of Homo sapiens with 8 samples.

Results

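Intestinal epithelium depends on a set of transcription factors, not all of them particular to intestine. Here 7 of these were followed: the homeobox factors CDX1 and CDX2, the nuclear receptors HNF4A and HNF4G, the zinc finger factor GATA6, and the Krüppel-like factors KLF4 and KLF5. They were taken by name, with earlier results of these data known. Each gene was read by the probe set with the highest mean over all arrays among those annotated to it alone. Probe sets were found for 6 of the 7 among 19775 genes on the array (11 probe sets, 1 for CDX1 and 2 for each of the others). HNF4A was not analysed here, because no probe set carried its symbol alone in the annotation used.

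In the gut, CDX2 opens and binds enhancers of intestinal genes, CDX1 shares much of its binding preference, and the HNF4 receptors act at many of the same enhancers in mature enterocytes. GATA6 is an endoderm factor that in the mouse intestine supports crypt cells and Paneth and enteroendocrine fates. KLF5 is found in dividing crypt cells, whereas KLF4 is found in cells that have left the cycle and in goblet cells. Both Krüppel-like factors bind GC-rich promoter boxes.

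The study profiled colon cancer cells on 8 Affymetrix arrays, 2 for each of 4 groups, and the values are on the log2 scale that the RMA procedure gives. HT29 spheres, which the labels call 1st spheres, were HT29 cells kept in DMEM-F12 to which N2 Plus supplement, EGF (10 ng/ml), bFGF (10 ng/ml) and antibiotics were added, with no serum listed, and HT29 parental cells were the same line in DMEM with 10% fetal bovine serum. The 2 stable lines of SW480 carry either a Snail construct or the vector control, and both were kept in high-glucose DMEM with 10% fetal bovine serum. HT29 and SW480 are established lines from human colorectal adenocarcinomas, and Snail, encoded by SNAI1, is a repressor known for its part in epithelial to mesenchymal transition. The labels do not say whether a stable line is 1 clone or a pool, nor that paired arrays had their own cultures, so p-values measure the spread between arrays, which may be technical. Medium and sphere form cannot be told apart in the HT29 comparison. Line, vector construct and the DMEM named cannot be told apart between SW480 vector and HT29 parental cells.

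SNAI1 itself did not bear out the Snail label. It stood at 6.32 and 6.38 log2 on the arrays labelled Snail, against 6.36 and 6.34 on the vector arrays, a difference of 0.00 ± 0.15 log2 (SE, limma adjusted p = 0.99). The 1 probe set that reads it need not cover a construct, so directions in SW480 rest on the labels. In HT29 spheres SNAI1 stood at 6.93 and 7.21 log2, against 5.87 and 6.15 in parental cells, a rise of 1.07 ± 0.15 log2 (limma adjusted p = 0.00032).

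Array medians lay between 5.50 and 5.61 log2. The least similar pair was that of HT29 parental cells, with 200 genes at least 2-fold apart between its arrays, against 13, 10 and 19 in the sphere, Snail and vector pairs. The BioC hybridisation spike-in averaged 10.52 log2 on sphere arrays, against 8.83 log2 on parental arrays, and 10.53 log2 on SW480 vector arrays, so the gap lies in the line comparison too. An 18S ribosomal RNA control averaged 7.02 log2 on the arrays labelled Snail, against 5.91 log2 on vector arrays. The part of these technical differences in the results was not tested. No measure of detection was used, so a value below the array medians may be background and a fold change that rests on one has an uncertain size. Bulk RNA also cannot tell fewer expressing cells from less RNA per cell.

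The 6 measured factors moved apart from one another. In spheres KLF4 and CDX1 rose and HNF4G fell, while CDX2, GATA6 and KLF5 did not pass. In the arrays labelled Snail GATA6 rose and the other 5 did not pass. Between the lines, CDX2 was higher in SW480 vector cells than in HT29 parental cells, HNF4G, GATA6, KLF4 and KLF5 were lower, and CDX1 did not pass. Counted at a limma adjusted p under 0.05 over all genes, 3 of 6 factors were called in spheres, where 31.4% of all 19775 genes were called (12.4% higher and 19.0% lower). In the Snail comparison 1 of 6 was called, where 16.2% of all genes were (8.91% higher and 7.34% lower). Between the lines 5 of 6 were called, where 46.1% of all genes were (22.6% higher and 23.5% lower). With 6 genes nothing further is read from these counts, and the results lie in the size and direction of each factor.

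**Figure D1:**
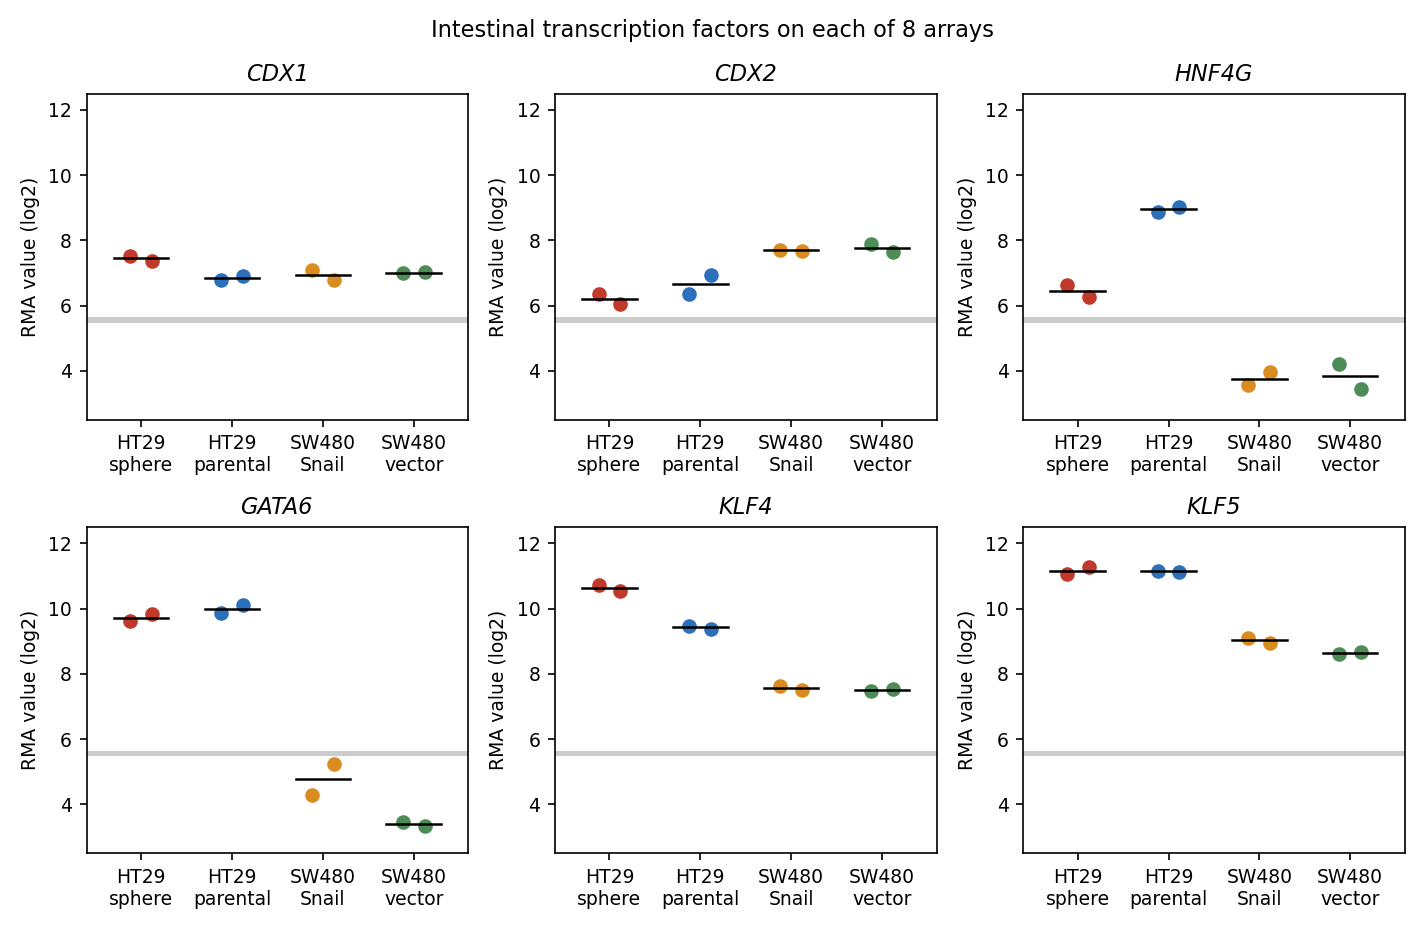
Each panel plots the RMA value (log2) of 1 transcription factor on the y axis for the 2 arrays of each group (points) with the group mean (line), and the grey band spans the array medians, 5.50 to 5.61 log2. HNF4G and GATA6 fall below the band on all 4 SW480 arrays, and KLF4 is highest in HT29 spheres.

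CDX1, a caudal homeobox factor of the crypt, was the homeobox member that changed in spheres. It read 7.53 and 7.36 log2 in spheres, against 6.79 and 6.91 log2 in parental cells. In SW480 cells it read 7.07 and 6.77 log2 on the arrays labelled Snail, against 6.98 and 7.03 log2 on vector arrays. Both sphere arrays stood above the other 6 arrays, which lay within a narrow range and overlapped between Snail and vector. CDX1 rose by 0.59 ± 0.14 log2 in spheres (1.51-fold, 95% interval 0.28 to 0.91, limma adjusted p = 0.0094), a call lost without sphere array 1 (0.51 log2, adjusted p = 0.077). The Snail difference was -0.09 ± 0.14 log2 (interval -0.40 to 0.23, adjusted p = 0.75), and vector minus parental was 0.16 ± 0.14 log2 (adjusted p = 0.40).

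CDX2, the caudal factor that sets intestinal fate and a standard marker of colorectal tissue, was called between the lines and not within either line. Values on the sphere arrays were 6.37 and 6.04 log2, against 6.36 and 6.93 log2 on the parental arrays, which overlap. The arrays labelled Snail gave 7.70 and 7.67 log2, against 7.88 and 7.63 log2 for vector cells, which overlap as well. Every SW480 array exceeded every HT29 array. SW480 vector cells were higher than HT29 parental cells by 1.11 ± 0.19 log2 (2.15-fold, interval 0.67 to 1.54, limma adjusted p = 0.00086). CDX2 was thus the 1 factor of the 6 called higher in SW480 vector cells.

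In spheres the CDX2 difference was -0.44 ± 0.19 log2 and did not pass (interval -0.88 to -0.01, limma adjusted p = 0.11). Its parental arrays were the most spread of the 4 pairs for this gene (SD 0.41 log2), and without parental array 1 the difference was -0.73 log2 and passed (adjusted p = 0.016), while without parental array 2 it was -0.16 log2 (adjusted p = 0.57). The Snail difference was -0.07 ± 0.19 log2 (interval -0.50 to 0.37, adjusted p = 0.87). A dimmer CDX2 probe set, whose values in HT29 cells lay below every array median, gave 0.71 log2 between the lines (limma adjusted p over all probe sets 0.021), -0.20 log2 in spheres and 0.34 log2 in the Snail comparison.

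The window around the CDX2 start is shown because CDX2 is the 1 member called higher in SW480 vector cells, and because CDX and GATA factors are members here. It is a RefSeq window of GRCh38.p14 at chr13:27969266-27969565 on the minus strand, from 250 bases before the start to 50 after it, and capitals mark a CDX core (TTTAT or its reverse complement ATAAA) or a GATA core (AGATAA or TTATCT).
CDX2: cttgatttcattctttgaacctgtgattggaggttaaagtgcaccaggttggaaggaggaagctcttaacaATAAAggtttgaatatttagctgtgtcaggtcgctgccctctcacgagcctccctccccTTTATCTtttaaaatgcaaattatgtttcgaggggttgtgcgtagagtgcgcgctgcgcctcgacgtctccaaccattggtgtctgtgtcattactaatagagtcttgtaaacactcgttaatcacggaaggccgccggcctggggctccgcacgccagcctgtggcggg
Within these 300 bases 2 CDX cores were found, and the second overlaps the 1 GATA core. A CDX core occurs in 34.9% and a GATA core in 10.3% of 35116 windows of the same length, so the matches are a description of the letters only. GC content was 50.3%, against a median of 58.7% over all windows.

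HNF4G, a nuclear receptor close to HNF4A and strongest in gut epithelium, showed the deepest fall of the 6 in spheres. It read 6.63 and 6.27 log2 in spheres, against 8.88 and 9.01 log2 in parental cells. On the arrays labelled Snail it read 3.57 and 3.95 log2, against 4.21 and 3.45 log2 on vector arrays. The HT29 groups were separated by 2.24 log2 at their nearest arrays, whereas the SW480 groups overlapped at values below every array median. HNF4G fell by 2.49 ± 0.24 log2 in spheres (5.63-fold, interval -3.02 to -1.96, limma adjusted p = 3.12e-05), and 89 of 19775 genes fell further.

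The dimmer HNF4G probe set fell by 0.76 log2 in spheres (limma adjusted p over all probe sets 0.0090), so the direction was shared and the size was not. This dimmer set lay below every array median on all 8 arrays, so its values may be background. The mean of both probe sets fell by 1.63 log2 (adjusted p = 0.00013). Group means were 6.45 ± 0.25 log2 in spheres, against 8.95 ± 0.10 log2 in parental cells, and 3.76 ± 0.27 log2 on the arrays labelled Snail, against 3.83 ± 0.54 log2 in vector cells (SD, n = 2 each). Parental cells were thus highest, spheres intermediate and both SW480 groups lowest. The SW480 pair did not differ beyond its spread (-0.06 ± 0.24 log2, interval -0.59 to 0.46, limma adjusted p = 0.90). SW480 vector cells were lower than parental HT29 cells by -5.12 ± 0.24 log2 (34.8-fold, limma adjusted p = 5.84e-08), and by -1.54 log2 on the dimmer probe set (adjusted p over all probe sets 4.06e-05).

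GATA6, the endodermal GATA factor, stood far apart between the lines on its brightest probe set. Sphere arrays gave 9.62 and 9.82 log2, against 9.85 and 10.12 log2 for parental arrays. The arrays labelled Snail gave 4.30 and 5.24 log2, against 3.46 and 3.35 log2 for vector arrays. The HT29 groups were 0.04 log2 from touching, the SW480 groups were 0.84 log2 apart, and all 4 SW480 values lay below every array median.

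SW480 vector cells were lower than HT29 parental cells by -6.58 ± 0.25 log2 (95.9-fold, limma adjusted p = 1.57e-08), and 15 of 19775 genes were lower still. In the arrays labelled Snail GATA6 rose by 1.36 ± 0.25 log2 (2.57-fold, interval 0.80 to 1.92, limma adjusted p = 0.0050). The 2 Snail arrays differed from each other by more than those of any other group (SD 0.67 log2), and without Snail array 2 the rise was 0.89 log2 (adjusted p = 0.023). With the mean of both GATA6 probe sets it was 0.74 log2 (adjusted p = 0.019), and the line difference was -3.28 log2 (adjusted p = 3.41e-07), against -3.33 log2 for HNF4G in the same way. Because both groups sat below the array medians, the size of this rise is uncertain. In spheres the difference was -0.27 ± 0.25 log2 (interval -0.83 to 0.29, adjusted p = 0.47).

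The other GATA6 probe set did not follow: it read between 5.53 and 5.93 log2 on all 8 arrays, close to the array medians, and gave 0.12, 0.12 and 0.03 log2 in the sphere, Snail and line comparisons. GATA6-AS1, an antisense transcript next to GATA6, was read by its own probe set and was lower in SW480 vector cells than in parental HT29 cells by -1.93 log2 (limma adjusted p over all probe sets 5.79e-05). GATA6-AS1 differed by 0.26 log2 in the Snail comparison and did not pass (adjusted p over all probe sets 0.55).

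The GATA6 start window is shown because GATA6 is the member called in the Snail comparison. It lies at chr18:22169339-22169638 on the plus strand of GRCh38.p14 (RefSeq), from 250 bases before the start to 50 after it, with the CDX core in capitals.
GATA6: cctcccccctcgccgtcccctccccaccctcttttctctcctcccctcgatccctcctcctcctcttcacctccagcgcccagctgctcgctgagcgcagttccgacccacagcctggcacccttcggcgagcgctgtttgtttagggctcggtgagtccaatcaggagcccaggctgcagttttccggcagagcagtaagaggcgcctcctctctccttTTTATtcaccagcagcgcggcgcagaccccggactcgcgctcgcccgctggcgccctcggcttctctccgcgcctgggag
It holds 1 CDX core, no GATA core and no GC box (GGGCGG or CCGCCC), a box that occurs in 45.0% of all windows. GC content was 66.7%.

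KLF4, the Krüppel-like factor of non-dividing gut cells, rose in spheres and was the member whose probe sets were closest there. It read 10.71 and 10.55 log2 in spheres, against 9.47 and 9.38 log2 in parental cells. The arrays labelled Snail read 7.64 and 7.50 log2, against 7.46 and 7.52 log2 on vector arrays. Sphere arrays lay above parental arrays, parental arrays above all SW480 arrays, and Snail and vector arrays overlapped. The rise in spheres was 1.21 ± 0.13 log2 (2.31-fold, interval 0.92 to 1.49, limma adjusted p = 5.96e-05), and 443 genes rose further. A second, dimmer probe set rose by 1.24 log2 (adjusted p over all probe sets 0.00018).

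Between the lines KLF4 was lower in SW480 vector cells by -1.93 ± 0.13 log2 (3.82-fold, limma adjusted p = 7.34e-07), or -0.74 log2 with the dimmer probe set (adjusted p over all probe sets 0.0031). The Snail difference was 0.08 ± 0.13 log2 (interval -0.21 to 0.36, adjusted p = 0.75). There the dimmer probe set ran the other way, at -0.48 log2, and did not pass (adjusted p over all probe sets 0.072).

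Since Krüppel-like factors bind GC boxes, the KLF4 start window is shown with these in capitals. It lies at chr9:107489720-107490019 on the minus strand of GRCh38.p14 (RefSeq), again with 250 bases before the start and 50 after.
KLF4: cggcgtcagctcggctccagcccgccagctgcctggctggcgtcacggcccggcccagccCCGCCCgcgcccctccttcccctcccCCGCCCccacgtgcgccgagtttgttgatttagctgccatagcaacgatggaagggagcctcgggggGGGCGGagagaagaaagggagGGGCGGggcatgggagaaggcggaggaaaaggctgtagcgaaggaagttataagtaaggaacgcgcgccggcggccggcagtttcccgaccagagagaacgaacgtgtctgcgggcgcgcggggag
Here 4 GC boxes were found and no CDX or GATA core, at a GC content of 69.0%. A GC box occurs in 45.0% of all windows, whose median GC content was 58.7%. The boxes are a description of the letters only.

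KLF5, the Krüppel-like factor of dividing crypt cells, did not follow KLF4 in spheres. It read 11.05 and 11.26 log2 in spheres, against 11.16 and 11.13 log2 in parental cells, and the groups overlap. The arrays labelled Snail read 9.11 and 8.95 log2, against 8.62 and 8.67 log2 on vector arrays, without overlap. The sphere difference was 0.01 ± 0.13 log2, with an interval of -0.28 to 0.30 log2 (limma adjusted p = 0.96). KLF5 differed in the Snail comparison by 0.38 ± 0.13 log2 (1.30-fold, interval 0.09 to 0.67) and did not pass (adjusted p = 0.075).

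That Snail difference in KLF5 passed with array weights (adjusted p = 0.036), without the dimmest 40% of genes (0.040) and with limma-trend (0.027), and the second probe set gave -0.12 log2. Its direction therefore depended on the probe set. Between the lines KLF5 was lower in SW480 vector cells by -2.50 ± 0.13 log2 (5.66-fold, limma adjusted p = 1.33e-07), and by -2.12 log2 on the second probe set (adjusted p over all probe sets 1.55e-06).

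**Figure D2:**
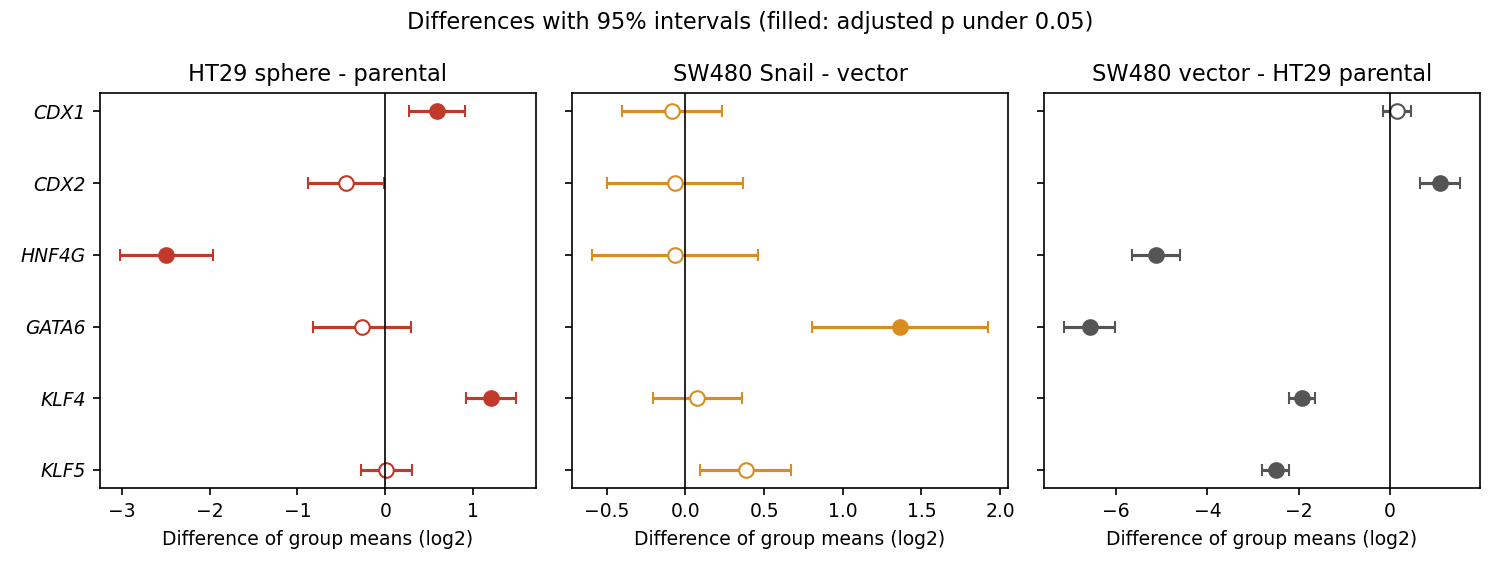
Points give the difference of group means (log2) on the x axis for each factor in 3 comparisons, bars give 95% intervals from limma, and filled points have an adjusted p under 0.05; the x axes differ between panels. HNF4G lies at -2.49 and KLF4 at 1.21 in spheres, GATA6 alone is filled in the Snail panel, and CDX2 alone is filled to the right of 0 between the lines.

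Whether a factor changed unequally in the sphere and Snail comparisons was tested directly as the difference of the changes. CDX1, HNF4G, GATA6 and KLF4 passed (4 of 6, where 27.5% of all genes passed). HNF4G gave -2.43 ± 0.34 log2 (limma adjusted p = 0.00049), and KLF4 gave 1.13 ± 0.18 log2 (adjusted p = 0.0011). GATA6 gave -1.63 ± 0.36 log2 (adjusted p = 0.0067). On the dimmer probe sets GATA6 gave -0.0012 log2 and HNF4G -0.62 log2, and neither passed (limma adjusted p over all probe sets 0.998 and 0.11). The dimmer KLF4 probe set gave 1.72 log2 (adjusted p over all probe sets 0.00034). SW480 values on the brightest GATA6 probe set all lay below every array median, so the size of its difference is uncertain. CDX1 gave 0.68 ± 0.20 log2 (adjusted p = 0.030), a call lost on leaving out parental array 1, sphere array 1, Snail array 2 or either vector array (0.53 to 0.70 log2, adjusted p 0.064 to 0.13). CDX2 (-0.38 log2, adjusted p = 0.35) and KLF5 (-0.37 log2, adjusted p = 0.17) did not pass. The sphere and line comparisons use the same parental arrays, so their values are set side by side without a test between them.

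**Figure D3:**
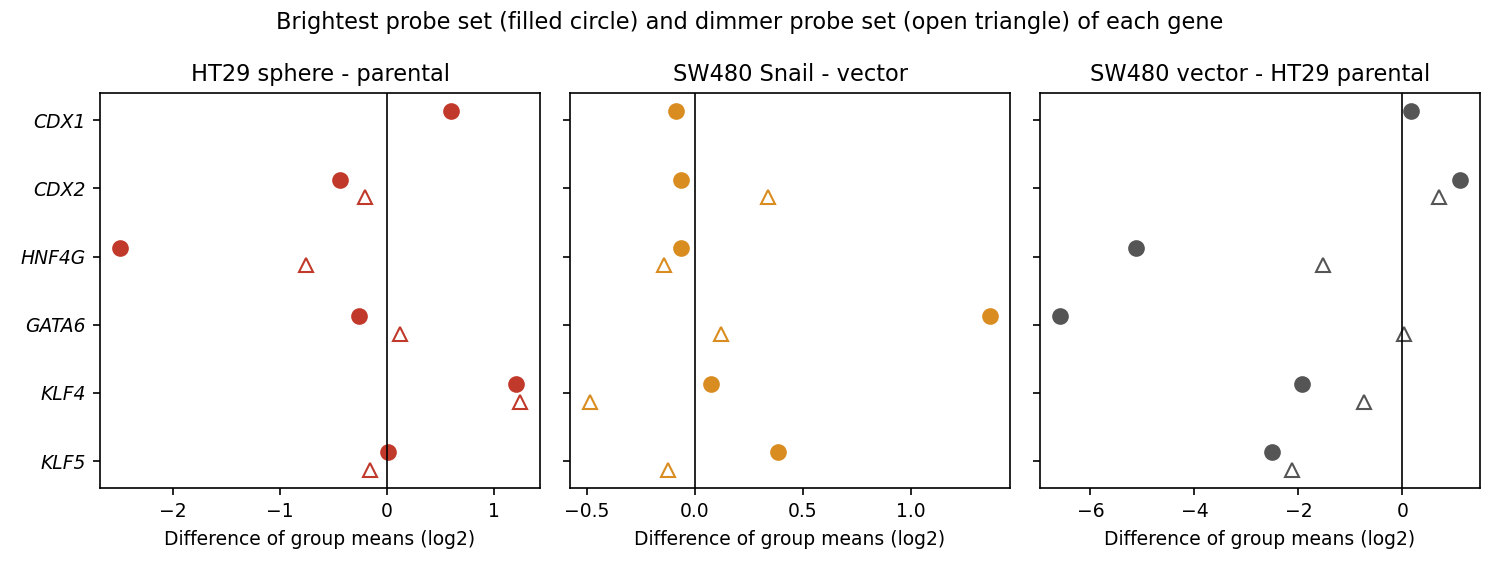
For each factor the filled circle is the difference of group means (log2, x axis) of the brightest probe set and the open triangle that of the dimmer one; CDX1 has 1 probe set and the x axes differ between panels. Both KLF4 probe sets lie near 1.2 in spheres, at 1.21 and 1.24, while the dimmer GATA6 probe set stays within 0.12 of 0 in every panel.

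Genes that CDX and HNF4 factors are known to act on in gut epithelium were counted next, 36 of 38 listed genes having a probe set. In spheres 12 rose, 3 fell and 21 did not pass, with a list median of 0.27 log2 against 0.04 log2 over all genes. Of all 19775 genes, 12.4% were called higher and 19.0% lower there. CDH17, the intestinal cadherin and a CDX2 target, read 9.92 and 9.73 log2 in spheres, against 5.08 and 5.09 log2 in parental cells. CDH17 thus rose by 4.74 ± 0.15 log2 (26.8-fold, limma adjusted p = 4.88e-08) in the cells where CDX1 rose and CDX2 did not pass, and its parental values lay below every array median. The part of either factor in the CDH17 rise was not tested. Other rises included REG4 by 1.90 ± 0.20 log2 and KRT20 by 1.59 ± 0.20 log2. CFTR, the chloride channel, fell by 3.32 ± 0.14 log2 (-3.43 to -1.34 log2 over the alternatives) and NOX1, a colonic NADPH oxidase, by 1.68 ± 0.14 log2 (-2.67 to -1.45 log2). The remaining fall was that of VIL1, by 0.77 ± 0.17 log2. Without sphere array 1 the count of rises was 7.

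In the arrays labelled Snail 0 target genes rose, 3 fell and 33 did not pass (median -0.05 log2 against 0.01 log2 over all genes). Many of the listed genes lay below every array median in SW480 vector cells, among them SI (2.79 log2), SLC26A3 (3.27 log2), MTTP (3.54 log2) and LGALS4 (4.73 log2). A fall could hardly be seen in such genes, so not passing does not show that they were unchanged. The 3 genes that fell had vector means above the array medians. Over all genes 8.91% were called higher and 7.34% lower. The tetraspanin-like TM4SF5 fell by 1.43 ± 0.19 log2 (limma adjusted p = 0.0010), and VIL1, villin of the brush border, by 1.06 ± 0.17 log2 (adjusted p = 0.0023). SERPINA1, alpha-1 antitrypsin, fell by 0.68 ± 0.15 log2 (adjusted p = 0.012), a call lost without either Snail array or without vector array 1. VIL1 read 5.76 and 6.13 log2 on the arrays labelled Snail, against 6.99 and 7.02 log2 on vector arrays. With array weights, or without vector array 2, 1 target gene rose.

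Between the lines 2 target genes were higher in SW480 vector cells, 14 were lower and 20 did not pass (median -0.19 log2 against 0.07 log2). Of all genes, 22.6% were called higher and 23.5% lower. LGALS4, galectin 4, was lower by -7.78 ± 0.21 log2, TM4SF4 by -7.18 ± 0.13 log2 and KRT20, a keratin of mature gut cells, by -6.95 ± 0.20 log2. KRT20 read 4.74 and 4.11 log2 in vector cells, against 11.38 and 11.36 log2 in parental HT29 cells. These 3 genes lay below every array median in SW480 vector cells, the line in which CDX2 was higher. A part of CDX2 in these differences was not tested. The count of higher genes was 4 with the mean of each gene's probe sets, and 1 without parental array 1 or vector array 2.

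**Figure D4:**
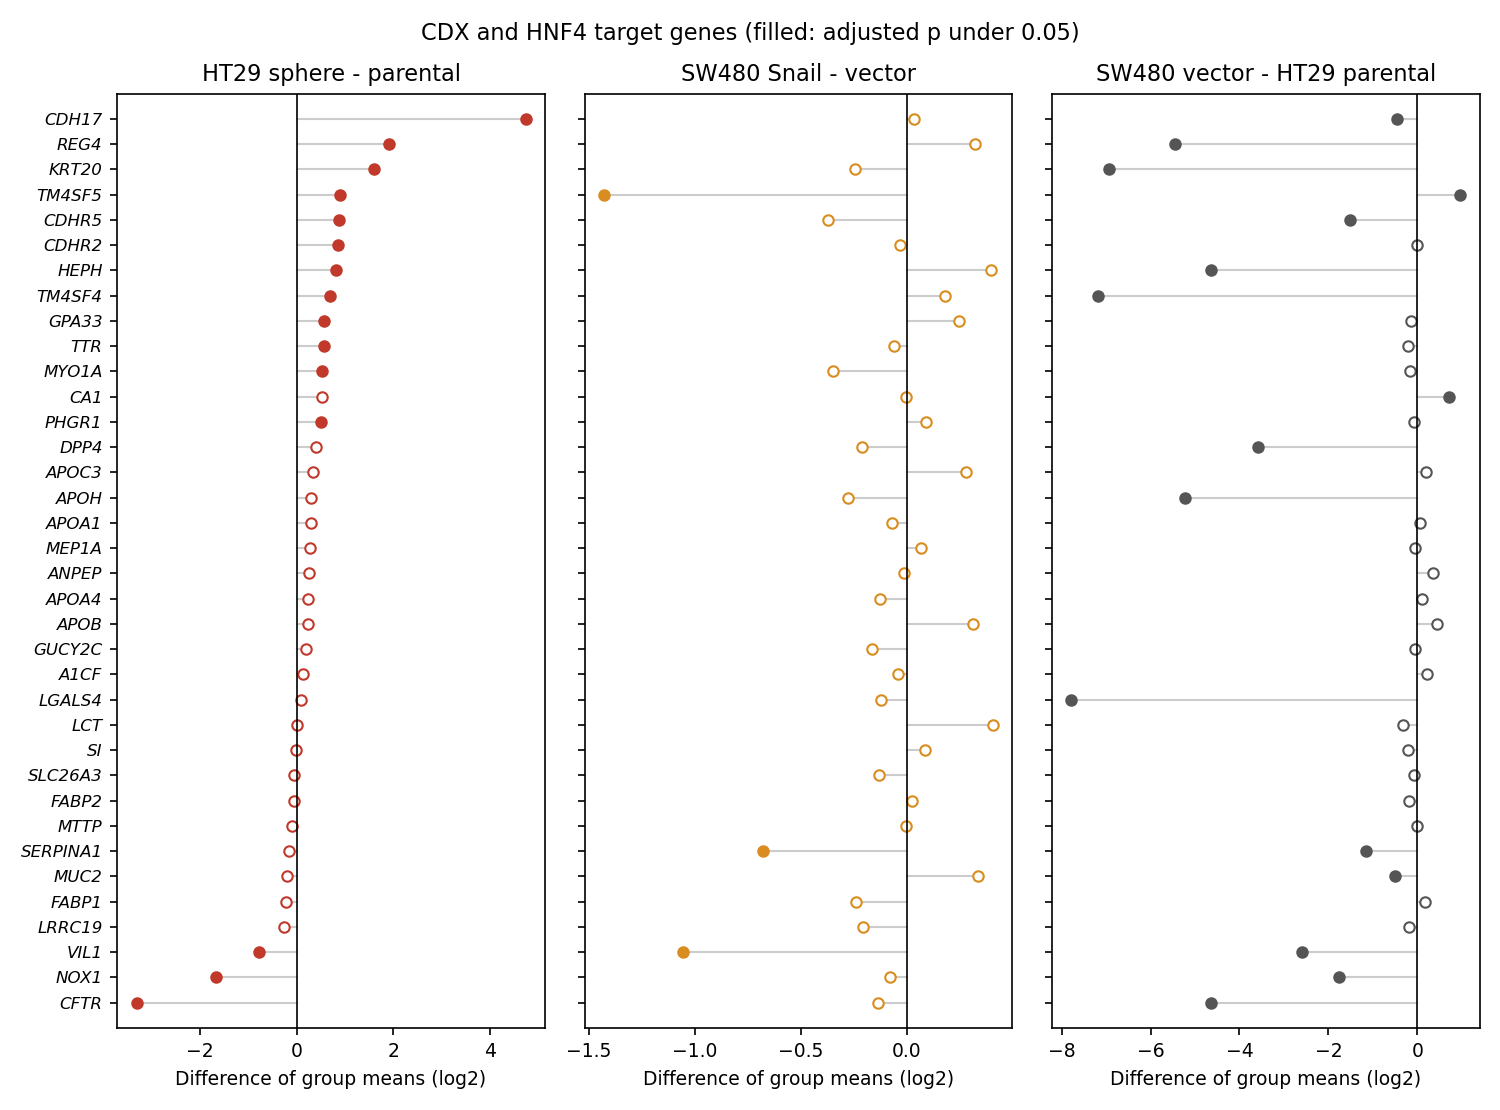
Each point is the difference of group means (log2, x axis) of 1 CDX or HNF4 target gene, ordered by the sphere difference, with filled points at an adjusted p under 0.05; the x axes differ between panels. CDH17 leads the sphere panel at 4.74, CFTR ends it at -3.32, and in the Snail panel the 3 filled genes all lie left of 0.

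Other gut transcription factors, of which 21 of 25 listed had a probe set, were counted in the same way. In spheres 1 rose, 9 fell and 11 did not pass (median -0.44 log2 against 0.04 log2 over all genes). The called shares over all genes were 12.4% higher and 19.0% lower. FOXA1, a pioneer factor that acts with HNF4 and GATA factors, fell by 2.63 ± 0.16 log2 (limma adjusted p = 2.20e-06). PPARG, a nuclear receptor of differentiated colon cells, fell by 2.08 ± 0.17 log2 and EHF, an epithelial ETS factor, by 1.57 ± 0.13 log2. Of the EHF probe sets, 1 dimmer set gave 1.19 log2, and over the alternatives EHF lay between -1.65 and -0.72 log2. FOXA1 and PPARG thus moved the way HNF4G did, whereas KLF4 and CDX1 rose.

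In the Snail comparison 4 of the 21 rose, 4 fell and 13 did not pass (median 0.15 log2 against 0.01 log2). Over all genes 8.91% were called higher and 7.34% lower. ASCL2, a crypt stem cell factor, rose by 2.46 ± 0.16 log2, EHF by 2.14 ± 0.13 log2 and VDR, the vitamin D receptor, by 1.22 ± 0.15 log2. Leaving out any 1 SW480 array left 2 falls. Between the lines 2 were higher in SW480 vector cells, 12 lower and 7 did not pass (median -0.89 log2 against 0.07 log2). Of all genes, 22.6% were called higher and 23.5% lower. EHF differed by -5.27 ± 0.13 log2, PPARG by -3.73 ± 0.17 log2 and FOXA1 by -3.60 ± 0.16 log2. FOXA1 read 4.86 and 4.42 log2 in vector cells, below every array median, so the size of its difference is uncertain.

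The other 15 Krüppel-like factors were mixed in spheres, with 3 rises, 5 falls and 7 not past (median 0.01 log2 against 0.04 log2 over all genes). KLF9 fell by 1.70 ± 0.14 log2, KLF8 by 1.49 ± 0.20 log2 and KLF15 by 1.32 ± 0.18 log2, while dimmer probe sets gave 0.64 log2 for KLF8 and 0.28 log2 for KLF15. KLF8 read 3.78 and 4.33 log2 in spheres, below every array median, so the size of its fall is uncertain. Over the alternatives KLF9 reached -0.87 log2, KLF8 -0.42 log2 and KLF15 -0.52 log2 at the weakest. Without sphere array 1 the rises numbered 1. In the arrays labelled Snail 7 rose, 1 fell and 7 did not pass (median 0.41 log2 against 0.01 log2). KLF12 rose by 1.42 ± 0.17 log2, KLF11 by 1.23 ± 0.16 log2 and KLF10, a TGF-beta early response gene, by 0.99 ± 0.15 log2, and the weakest alternative for KLF12 gave 0.53 log2. The rises numbered 3 and 4 without Snail array 1 and 2, and 4 and 3 without vector array 1 and 2. The falls numbered 2 with array weights, with each line fitted alone and without either parental array, and 0 without Snail array 2 or vector array 1. Between the lines 3 were higher in SW480 vector cells, 8 lower and 4 not past (median -0.66 log2 against 0.07 log2), led by KLF3 (-2.39 ± 0.13 log2), KLF13 (-2.24 ± 0.19 log2) and KLF12 (-1.98 ± 0.17 log2). With quantile normalisation 5 were higher. The weakest alternative between the lines gave -1.28 log2 for KLF3, -0.74 log2 for KLF13 and -0.32 log2 for KLF12. Dimmer KLF12 probe sets lay between -1.21 and 0.56 log2 there. Over all genes 12.4% were called higher and 19.0% lower in spheres, and 8.91% and 7.34% in the Snail comparison. Between the lines these shares were 22.6% and 23.5%.

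**Figure D5:**
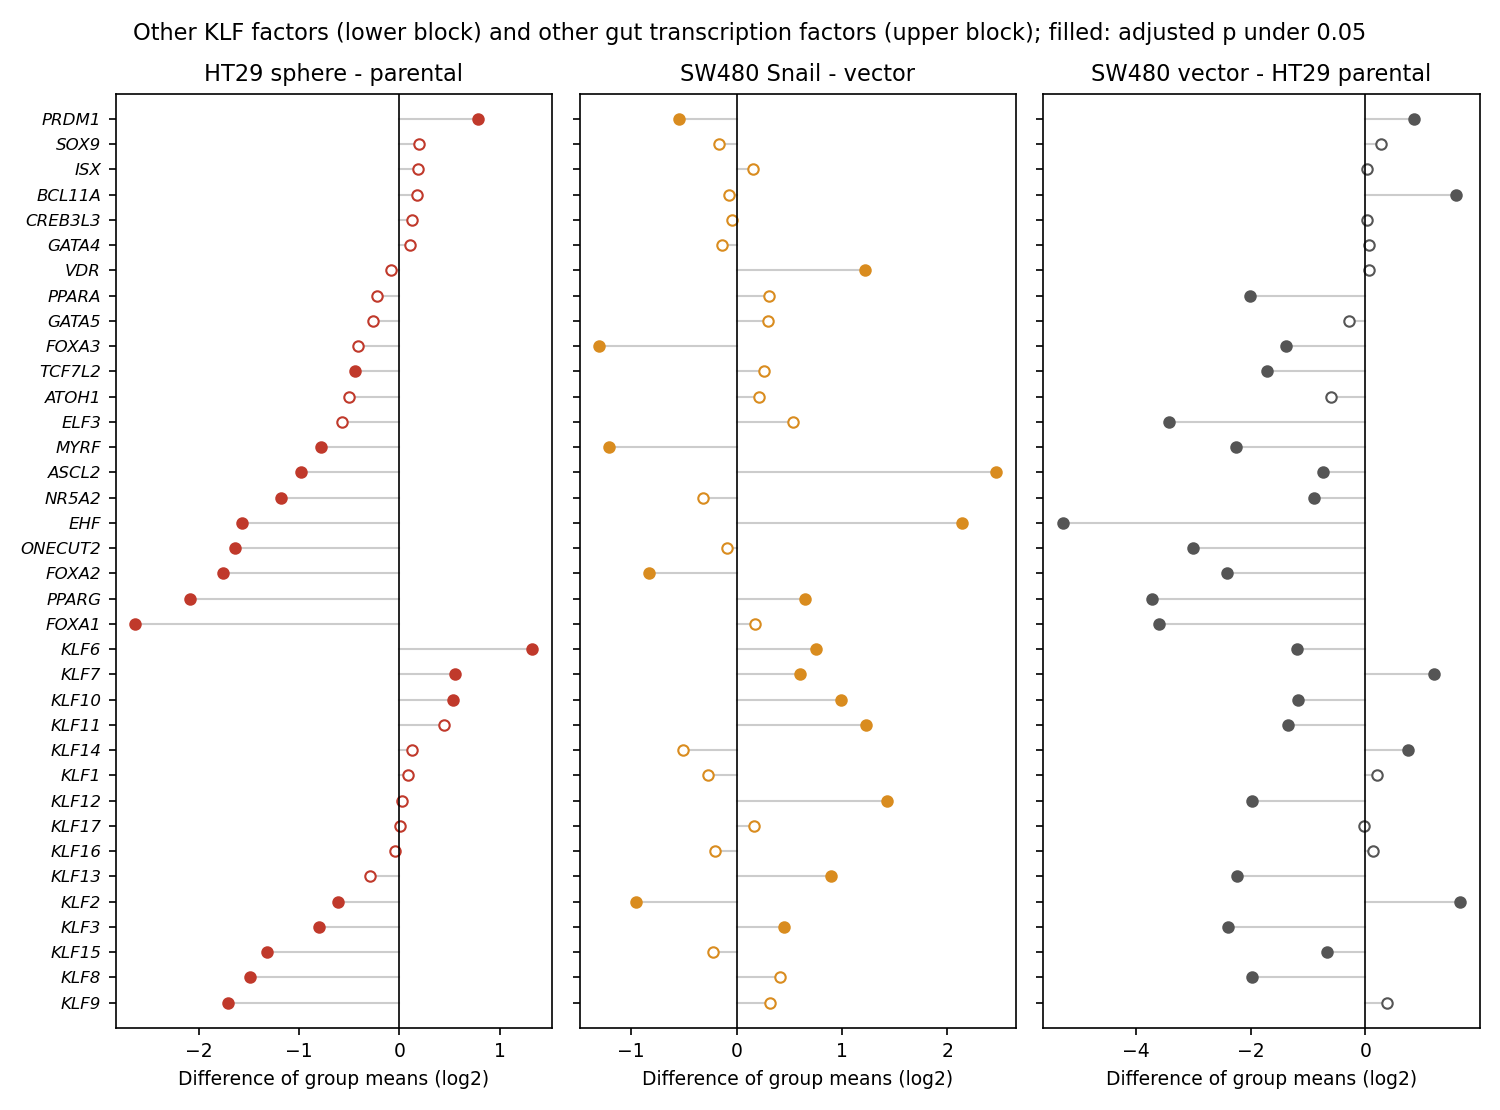
Points are differences of group means (log2, x axis) for 21 other gut transcription factors (upper block) and 15 other Krüppel-like factors (lower block), with filled points at an adjusted p under 0.05; the x axes differ between panels. FOXA1 at -2.63 ends the upper block in spheres, and ASCL2 at 2.46 and EHF at 2.14 reach furthest right in the Snail panel.

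The last list was set up for foregut and other endoderm identity, and 19 of its 20 genes had a probe set. It also holds factors that are not particular to endoderm, such as GATA2, GATA3 and FOXF1, so its counts do not measure endoderm identity. Over all genes 12.4% were called higher and 19.0% lower in spheres, and 8.91% and 7.34% in the Snail comparison. Between the lines these shares were 22.6% and 23.5%. In spheres 1 rose, 3 fell and 15 did not pass (median 0.02 log2 against 0.04 log2): GATA2, a GATA factor of blood and other lineages, fell by 3.04 ± 0.16 log2, GATA3 by 1.25 ± 0.14 log2, and TFF2, a stomach trefoil peptide, rose by 1.46 ± 0.16 log2. In the Snail comparison 1 rose, 2 fell and 16 did not pass (median -0.13 log2 against 0.01 log2). GATA2 rose by 0.77 ± 0.16 log2, PAX9 fell by 0.56 ± 0.14 log2 and GATA3 fell by 0.47 ± 0.14 log2. The calls were lost in 3 of 17 alternatives for GATA2, 5 of 16 for PAX9 and 9 of 17 for GATA3. Between the lines 3 were higher in SW480 vector cells, 3 lower and 13 not past (median 0.19 log2 against 0.07 log2): FOXF1 differed by 2.43 ± 0.24 log2, HHEX by 1.99 ± 0.18 log2 and GATA2 by -1.81 ± 0.16 log2. FOXF1 read 3.96 and 3.25 log2 in parental HT29 cells, below every array median, so the size of its difference is uncertain.

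Among genes spanning at least 1 log2 over the group means (6401 candidates), the 3 whose centred values lay closest to each factor over the 8 arrays were listed by root mean square difference. CDX1 spanned 0.59 log2 and was not matched. CDX2 was closest to GK6P, a pseudogene of the glycerol kinase family, at 0.13 log2, then OGDHL at 0.14 log2 and CEP128 at 0.14 log2. HNF4G was closest to TRIM31, a ubiquitin ligase of the gut (0.30 log2), ACSM3, an acyl-CoA synthetase (0.30 log2), and HNMT, which methylates histamine (0.35 log2). For HNF4G the match can be seen in TRIM31, which averaged 6.91 log2 in spheres, against 9.59 log2 in parental cells, and 4.70 log2 on the arrays labelled Snail, against 4.98 log2 on vector arrays.

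GATA6 lay closest to CALML4, a brush border calmodulin-like protein, at 0.35 log2, CLRN3 at 0.37 log2 and GPX2, the gut glutathione peroxidase, at 0.48 log2. CALML4 averaged 11.38 log2 in spheres, against 11.42 log2 in parental cells, and 6.61 log2 on the arrays labelled Snail, against 5.69 log2 on vector arrays. KLF4 lay closest to the potassium channel KCNK1 (0.15 log2), PLEKHA1 (0.16 log2) and the atypical homeodomain gene HOPX (0.21 log2). KLF5 lay closest to LRIG3 (0.12 log2), AHR, the aryl hydrocarbon receptor (0.12 log2), and SPDEF, an ETS factor of goblet cells (0.12 log2). These are descriptions of 8 arrays in 4 groups, chosen for likeness.

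The tissue label was checked with markers. All 8 epithelial markers had group means above the array medians in every group. Of the colon markers, CDX2 was called higher in SW480 vector cells than in HT29 parental cells, LGALS4, KRT20, VIL1 (-2.60 log2) and CDH17 (-0.46 log2) were called lower, and GPA33 did not pass (-0.14 log2). In spheres CDH17 (4.74 log2), KRT20 (1.59 log2) and GPA33 (0.57 log2) were called higher and VIL1 (-0.77 log2) lower, while CDX2 (-0.44 log2) and LGALS4 (0.09 log2) did not pass. LGALS4 read 12.56 and 12.65 log2 in spheres, against 12.47 and 12.55 log2 in parental cells, and 4.83 and 4.38 log2 on the arrays labelled Snail, against 5.05 and 4.41 log2 on vector arrays. Thus CDX2 was above the array medians in all groups, whereas LGALS4, KRT20 and CDH17 were below them in both SW480 groups and CDH17 in parental HT29 cells too.

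Epithelial markers changed in part. In spheres 3 of 8 rose, 0 fell and 5 did not pass, where 31.4% of all genes were called, with CLDN4 at 1.23 ± 0.21 log2, KRT19 at 0.64 ± 0.12 log2 and CLDN3 at 0.94 ± 0.27 log2. In the arrays labelled Snail 4 rose, 1 fell and 3 did not pass, where 16.2% of all genes were called. CLDN7 rose by 1.05 ± 0.15 log2, KRT8 by 0.57 ± 0.12 log2 and CDH1, E-cadherin, by 0.76 ± 0.17 log2. CLDN3 was the 1 that fell, by 0.94 ± 0.27 log2 (limma adjusted p = 0.041), and its second probe set gave -1.12 log2. Between the lines 0 were higher, 6 were lower in SW480 vector cells and 2 did not pass, where 46.1% of all genes were called. CDH1 differed by -3.38 ± 0.17 log2, CLDN3 by -2.39 ± 0.27 log2 and CLDN4 by -1.71 ± 0.21 log2. Calls among these that did not hold in every alternative were those of KRT19, CLDN3 in spheres, and KRT8 and CDH1 in the Snail comparison. The CLDN3 fall in the Snail comparison was not followed over the alternatives. The part of the epithelial markers in the results on the factors was not tested.

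Of 11 measured markers of blood, endothelial, stromal and muscle cells, 2 rose in spheres (PECAM1 by 0.57 ± 0.16 log2 and CD3E by 0.39 ± 0.13 log2), ACTA2 rose by 0.73 ± 0.13 log2 and PECAM1 fell by 0.55 ± 0.16 log2 in the Snail comparison, and between the lines CD14 was lower by -2.57 ± 0.20 log2 while PECAM1 (1.07 ± 0.16 log2) and COL1A1 (0.74 ± 0.16 log2) were higher in SW480 vector cells. Over all genes 31.4%, 16.2% and 46.1% were called in the sphere, Snail and line comparisons. With the mean of its probe sets PECAM1 lost its call in all 3 comparisons, and so did ACTA2 and COL1A1 in theirs. ACTA2 also lost it without Snail array 2, and CD3E in 9 of 16 alternatives. Other COL1A1 probe sets, singled out after their values were seen, gave 2.66 and 1.53 log2 in spheres, against 0.30 log2 for the one used. The summed level of the 11, as log2 of the sum, was 9.75 to 9.94 in spheres, against 9.70 to 9.79 in parental cells, and 9.86 to 9.89 on the arrays labelled Snail, against 9.75 to 9.76 on vector arrays. The part of these markers in the results was not tested either.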

How the data were processed

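The authors deposited 1 log2 value for each probe set on each array, and the submitters' processing notes name RMA. Its version and probe definitions are not stated there. RMA corrects background, normalises arrays to a common distribution and summarises probes, which compresses differences of dim genes. Of 54675 probe sets, 41091 named 1 gene, 1801 named several (left out) and 62 were controls, by GEO's platform annotation; 41043 Entrez identifiers matched RefSeq of GRCh38.p14, and 0 symbols changed. Each of 19775 genes was read by its brightest probe set, with the others as a check.

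Using limma 3.58.1 in R 4.3.3, the 4 group means were estimated together over the 8 arrays (4 residual and 6.10 prior degrees of freedom), with two-sided tests and Benjamini-Hochberg adjustment over all genes; probe sets were also tested one by one, adjusted over all of them. The number of arrays limits the precision, and 2 against 2 arrays allow no exact permutation p under 0.333. The fit was tested on simulated data. Text tables and figures used Python 3.11.15, pandas 2.3.3 and matplotlib 3.10.9.

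Samples were grouped by their labels. The 6 measured factors were named in every comparison, as were SNAI1, up to 3 genes of lowest adjusted p per list and comparison, and the 3 nearest genes of each factor spanning at least 1 log2. A few further list genes were named after their values were seen, to show changes in the other direction, further rises or dim values. The factors and lists were chosen with earlier results of these data known. Counts of list genes are given without a set test. Alternatives changed the probe set rule, the unit of the test, the arrays fitted, array weights, normalisation, centring, a filter on dim genes, the variance prior and the replicate block, and left out each array in turn; applying these to the lists was chosen after the data were seen. Arrays with the same replicate number did not deviate together (correlations of deviations from the group means -0.057 to 0.061).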

Additional observations from a re-analysis of the deposited data

How the results depend on the processing

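Counts of called factors in the sphere, line and difference-of-changes comparisons stayed within 1.5 times their values in every alternative run. In the Snail comparison 2 factors were called with array weights, without the dimmest 40% of genes and with limma-trend, KLF5 being the added one. Over all genes, leaving out 1 SW480 array gave 1447 to 1602 calls in the Snail comparison and leaving out parental array 1 gave 4087, against 3213; the SW480 fits leave 1 array in a group. With the replicate block, which rests on a shared number alone, 3, 1, 5 and 4 factors were called in the sphere, Snail, line and difference comparisons, the same counts as without it, and 6081, 3065, 8970 and 5281 genes. The mean of each gene's probe sets turned the KLF5 difference in spheres to -0.077 log2, and in the Snail comparison turned CDX2 to 0.14 and KLF4 to -0.20 log2, because their probe sets differ in sign there. Leaving out 1 array moved KLF5 in spheres between -0.097 (sphere array 2) and 0.12 log2, with -0.0082 without parental array 2. In the Snail comparison it moved CDX2 between -0.19 and 0.057 (vector array 1), HNF4G between -0.44 and 0.31 (vector array 1), with 0.13 without Snail array 1, and CDX1 between -0.24 and 0.067 log2 (Snail array 2). None of these reversed values passed the threshold before or after, and for those without 1 array the cause was not tested. HNF4G was left out by the filter on dim genes. Testing every probe set gives no gene count, and fitting each line alone gives no comparison across lines.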
